A study of Rattus norvegicus and Homo sapiens with 12 samples.

Results

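Mitosis is driven by CDK1 bound to cyclins A and B, which is switched on at the end of G2 by CDC25 phosphatases and assisted by the Polo and Aurora kinases. The spindle assembly checkpoint holds cells in metaphase until every kinetochore is attached, after which the anaphase-promoting complex, activated by CDC20, marks securin and cyclin B for destruction. Many of these genes are transcribed in a wave in G2 and M, in part through FOXM1 and the MuvB complexes, so in a growing culture their bulk mRNA level depends both on the share of cells in G2 and M and on the level in each cell.

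The 42 genes described here are a list of mitosis and G2/M genes, chosen with earlier results of these data known. They were matched by Ensembl identifier among the 60107 identifiers of the human count table. They were measured in DU145, a human prostate cancer cell line, in 3 libraries of F0 and 3 of F2, the 6 human libraries of a series of 12 that also holds the rat line PAIII (not analysed here). F0 DU145 is the parental line and F2 DU145, labelled MSC Educated, is the population that grew out after repeated 72 h exposures to conditioned media (CM) of human mesenchymal stem cells (MSCs). The labels of the samples give 2 such rounds and the text of the series gives 3, with 48 h of recovery. Both populations were grown in DMEM with 10% FBS. The sources used here do not say whether the 3 F2 samples were selected separately, so n, SD and p describe the spread between samples, which may be technical. In these bulk libraries, fewer cells in G2 and M and less mRNA per cell cannot be told apart.

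RNA was read with QuantSeq, which sequences 1 fragment near the poly(A) tail of a transcript, and its counts hardly scale with gene length, which lets levels be set side by side between genes as 3′ tag counts. Levels are given in CPM, the counts of each gene scaled to a common library total after TMM normalization in edgeR. The F0 libraries held 16029876 to 16479239 gene counts and the F2 libraries 15879480 to 16217918. Mitochondrially encoded genes took 5.71 to 6.0% of counts in F0 and 10.2 to 10.6% in F2. The fit was repeated without those genes. TMM scaling already offsets much of such a shift, so that fit cannot measure its part in the results. The epithelial markers summed to 1642 to 1700 CPM in F0 and 1833 to 1861 CPM in F2, with KRT5 at 0. Of 7 tested, 4 were higher, KRT19 the most (log2 fold change 0.67), and 2 were lower, CDH1 (-1.27) and KRT7 (-0.24). Together these were 85.7% of the 7, against 18.2% of all genes tested (adjusted p under 0.05 in edgeR). The 22 MSC markers summed to 387 to 405 CPM in F0 and 467 to 484 CPM in F2, with 12 at or under 3 counts and 7 at 0, among them THY1, VCAM1 and CXCL12. Most of that sum was NT5E, with means of 158 CPM in F0 and 222 CPM in F2, and ALCAM, with 166 and 188 CPM. Of 8 MSC markers tested, 3 were higher, NT5E (0.49), NES (0.49) and ALCAM (0.18), and 2 were lower, FN1 (-0.52) and TAGLN (-0.31). Together these were 62.5% of the 8, against 18.2% of all genes tested. The part of these marker shifts in the results was not tested.

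All 42 members passed the filter on low counts. The members were strongly expressed in both populations, with a median of 128 CPM against 17.4 CPM over all genes tested. TOP2A, which encodes the DNA topoisomerase that untangles sister chromatids, was the highest at 2201 CPM and ranked 37 among the 14316 genes tested. It alone held 25.6 to 27.9% of the summed level of the members. MKI67 (475 CPM), CENPF (363), ANLN (292), CDC20 (286) and AURKB (284) came next, and CDC25C was the lowest at 20.3 CPM.

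F2 was compared with F0 to ask whether the mitotic program differed after MSC selection. Of the 42 members, 11 were lower and 5 higher in F2 at an adjusted p under 0.05 in edgeR's quasi-likelihood test over all genes. Among the lower genes were CCNB1, PTTG1, CDC20, NEK2 and CDC25B, and the higher genes were MKI67, KIF20B, BUB3, FOXM1 and AURKB. The changes were small: the log2 fold changes of the members ran from -0.40 to 0.27, and no member reached 2-fold. The lower members made up 26.2% of the list, where 8.67% of all genes tested were lower, and the higher members 11.9%, where 9.49% of all genes were higher. Among the 6666 genes expressed at least as highly as the lowest member, 12.2% were lower and 13.3% higher, so the share of higher members was near this background. In both directions together 38.1% of the members were past the threshold, against 18.2% of all genes and 25.5% of those 6666 genes. The 3 F2 libraries lay wholly above or below the 3 F0 libraries for 22 members (52.4%), against 34% of all genes and 41.7% of those 6666. Because the members were chosen with earlier results of these data known, these shares describe the list and were not tested.

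The median log2 fold change over the 42 members was -0.072, with 16 positive and 26 negative values, and over all genes tested it was -0.0025. When libraries were scaled by their total count alone, the split was 2 higher and 22 lower in place of 5 and 11, and the medians moved to -0.16 for the members and -0.092 for all genes. Relative to the median of all genes, the members stood at -0.070 under both scalings. A change of scaling moves every gene by nearly the same amount, so this agreement follows from the arithmetic and is no check on the calls.

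**Figure D1:**
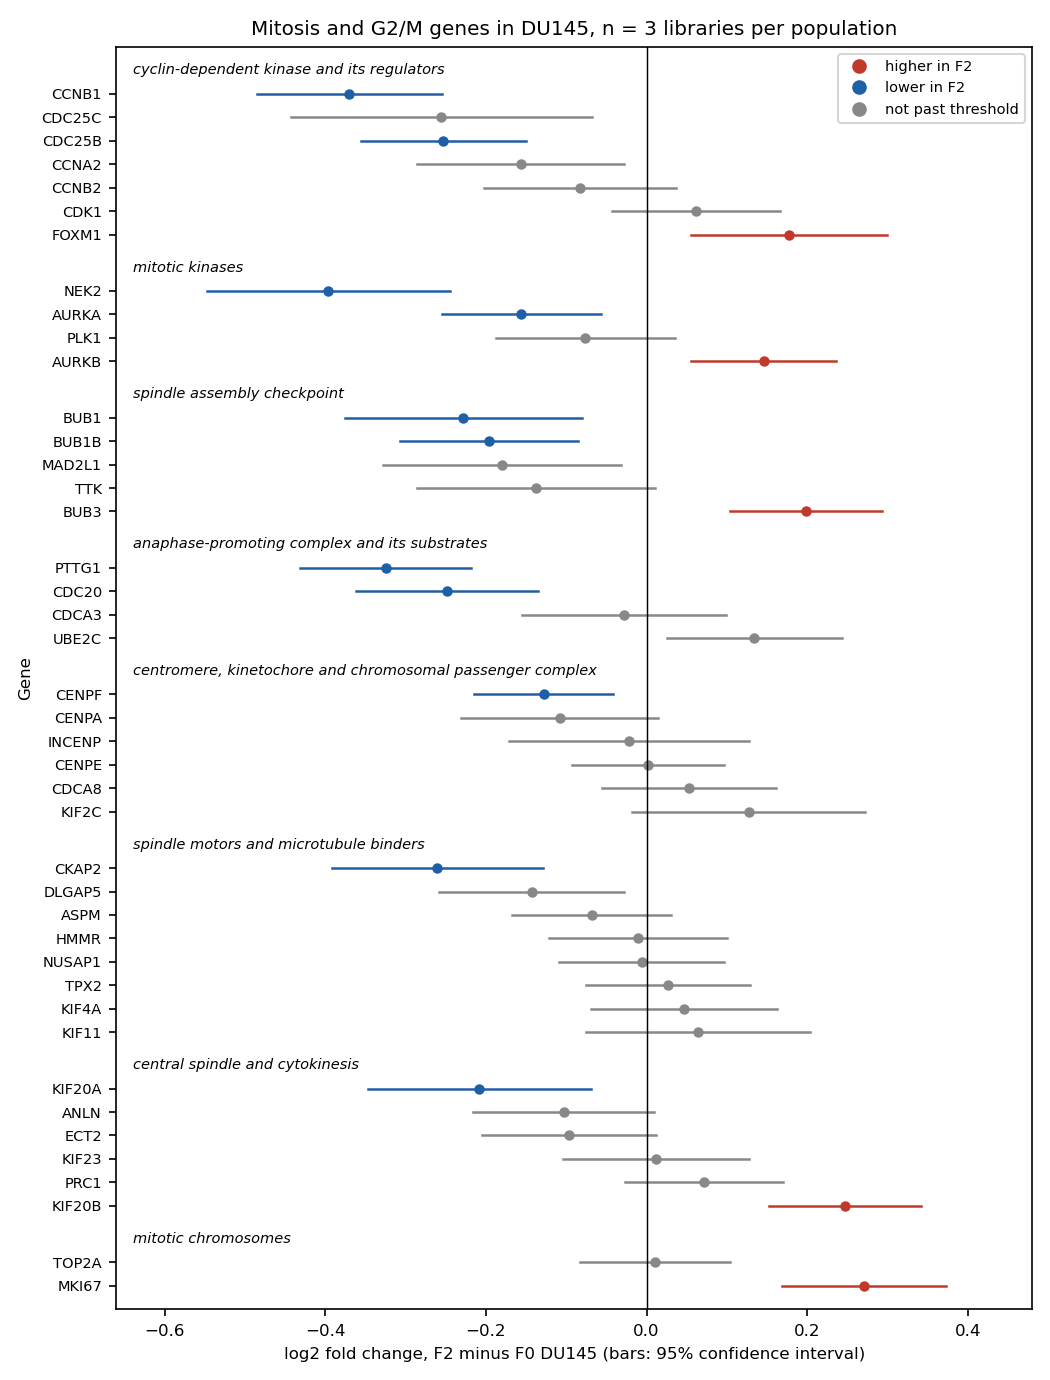
Log2 fold change (F2 minus F0 DU145) of each of the 42 members on the x axis, grouped by role on the y axis; points are edgeR estimates from 3 libraries per population, bars are 95% confidence intervals, and color marks the call. Values run from -0.40 for NEK2 to 0.27 for MKI67, and most roles hold members on both sides of 0.

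Among CDK1, its cyclins and its regulators, 2 of 7 members were lower and 1 was higher (42.9% together), with a median log2 fold change of -0.16. The groups by role are small. Over all genes tested 18.2% were past the threshold, and 25.5% of the 6666 genes at or above the lowest member. CCNB1 (chromosome 5, 69167010 to 69178245, plus strand) encodes cyclin B1, the partner that CDK1 needs to enter mitosis. It stood at 133, 142 and 146 CPM in the 3 F0 libraries and at 111, 101 and 114 CPM in the 3 F2 libraries. Every F2 library was below the lowest F0 library, and CCNB1 fell by 22.6%, a log2 fold change of -0.37 (SE 0.055, adjusted p = 8.1e-05 from edgeR). CDC25B (chromosome 20, 3786772 to 3806121, plus strand), a phosphatase that starts CDK1 activation, was at 145, 142 and 146 CPM in F0 and at 125, 115 and 123 CPM in F2. It also fell without overlap between the populations, with a log2 fold change of -0.25 (SE 0.049, adjusted p = 0.0011 from edgeR).

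CDK1 itself was at 175, 193 and 194 CPM in F0 and at 190, 202 and 195 CPM in F2. These ranges overlap, and the log2 fold change was 0.061, with a 95% interval from -0.043 to 0.17 (adjusted p = 0.44 from edgeR). CCNB2, which encodes cyclin B2, had a value of -0.083 (adjusted p = 0.35 from edgeR). CCNA2 and CDC25C, which encode cyclin A2 and a second activating phosphatase, were lower in every F2 library but not past the threshold, at -0.16 (adjusted p = 0.088 from edgeR) and -0.26 (adjusted p = 0.055 from edgeR). FOXM1 (chromosome 12, 2857681 to 2877155, minus strand), a transcription factor of the G2/M genes, was at 82.5, 88.9 and 89.6 CPM in F0 and at 95.2, 93.4 and 107 CPM in F2. It rose without overlap, by a log2 fold change of 0.18 (SE 0.058, adjusted p = 0.040 from edgeR). That call was lost in DESeq2 (adjusted p = 0.066), under scaling by total count alone (0.088, adjusted p = 0.30 from edgeR) and in 5 of 6 fits without 1 library. FOXM1 overlaps ITFG2 and RHNO1 on the other strand, and how strand was used in the counting is not stated.

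The mitotic kinases held the largest fall of the 42 members. NEK2 (chromosome 1, 211658657 to 211675630, minus strand), a kinase that separates the centrosomes, was at 40.7, 39.5 and 42.4 CPM in F0 and at 33.1, 31.4 and 28.7 CPM in F2. The populations were far apart relative to their spread, and NEK2 fell by 24%, a log2 fold change of -0.40 (SE 0.072, adjusted p = 6.6e-04 from edgeR).

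The 2 Aurora kinases in the member list, which work at different places in the mitotic cell, changed in opposite directions. Each of these calls held in only 2 of 6 fits without 1 library. AURKA (chromosome 20, 56369389 to 56392337, minus strand), the kinase of centrosomes and spindle poles, was at 303, 307 and 280 CPM in F0 and at 272, 269 and 257 CPM in F2. It fell, with a log2 fold change of -0.16 (SE 0.047, adjusted p = 0.026 from edgeR), although its lowest F0 and highest F2 libraries lay close together. AURKB (chromosome 17, 8204733 to 8210600, minus strand), the kinase of the chromosomal passenger complex, was at 274, 269 and 266 CPM in F0 and at 306, 290 and 299 CPM in F2. It rose in every F2 library, by 0.15 on the log2 scale (SE 0.043, adjusted p = 0.022 from edgeR). PLK1, the Polo kinase of mitotic entry and spindle assembly, was at 191, 178 and 181 CPM in F0 and at 167, 188 and 166 CPM in F2. Its populations overlapped, and its log2 fold change was -0.076, with a 95% interval from -0.19 to 0.035 (adjusted p = 0.36 from edgeR).

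In the spindle assembly checkpoint, 2 of 5 members were lower and 1 was higher (60% together, against 18.2% of all genes and 25.5% of the 6666). BUB1 (chromosome 2, 110637698 to 110678114, minus strand), a checkpoint kinase at kinetochores, was at 45.3, 52.4 and 53.7 CPM in F0 and at 42.3, 42 and 44.9 CPM in F2. BUB1B (chromosome 15, 40161023 to 40221136, plus strand), whose product BUBR1 is part of the mitotic checkpoint complex, was at 81.5, 84.2 and 88.6 CPM in F0 and at 73.9, 74.4 and 73.6 CPM in F2. Both fell without overlap, BUB1 by a log2 fold change of -0.23 (SE 0.071, adjusted p = 0.029 from edgeR) and BUB1B by -0.20 (SE 0.053, adjusted p = 0.014 from edgeR).

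BUB3 (chromosome 10, 123154277 to 123170467, plus strand), whose product binds both BUB1 and BUBR1, went the other way. It was at 250, 256 and 256 CPM in F0 and at 293, 278 and 303 CPM in F2, and rose by 0.20 on the log2 scale (SE 0.045, adjusted p = 0.0042 from edgeR). The checkpoint gene MAD2L1 was at -0.18 (adjusted p = 0.087 from edgeR) and the checkpoint kinase TTK at -0.14 (adjusted p = 0.20 from edgeR), and neither passed.

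Of the 4 members around the anaphase-promoting complex, 2 were lower (50%, against 8.67% of all genes and 12.2% of the 6666). PTTG1 (chromosome 5, 160421822 to 160428744, plus strand) encodes securin, the inhibitor of separase that is destroyed at anaphase. It was at 241, 234 and 223 CPM in F0 and at 189, 195 and 173 CPM in F2. Every F2 library was below F0, and PTTG1 fell by 20.2%, a log2 fold change of -0.32 (SE 0.051, adjusted p = 1.4e-04 from edgeR). CDC20 (chromosome 1, 43358955 to 43363203, plus strand), the activator of the complex, was at 305, 308 and 317 CPM in F0 and at 254, 288 and 242 CPM in F2. It fell with a log2 fold change of -0.25 (SE 0.054, adjusted p = 0.0030 from edgeR), and F2 replicate 2 stood nearest to F0. UBE2C, the ubiquitin-conjugating enzyme of the complex, had a positive value of 0.13 that did not pass (adjusted p = 0.083 from edgeR), with 219, 230 and 250 CPM in F0 and 249, 269 and 249 CPM in F2. CDCA3, a cell cycle gene placed in this group, was at -0.028 (adjusted p = 0.80 from edgeR).

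The centromere, kinetochore and passenger complex genes were closer to 0, with a median log2 fold change of -0.010. Of these 6 genes, 1 was past the threshold (16.7%, against 18.2% of all genes and 25.5% of the 6666). CENPF (chromosome 1, 214603195 to 214664588, plus strand), a large kinetochore protein of G2 and M, was at 383, 383 and 372 CPM in F0 and at 346, 348 and 347 CPM in F2. The populations did not overlap, and CENPF fell with a log2 fold change of -0.13 (SE 0.041, adjusted p = 0.035 from edgeR). CENPE, a kinetochore motor, was at 0.0019 with a 95% interval from -0.093 to 0.097. The centromeric histone CENPA (-0.11), the passenger genes INCENP (-0.022) and CDCA8 (0.053) and the microtubule depolymerase KIF2C (0.13) did not pass either.

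Among 8 spindle motors and microtubule binders, CKAP2 was the only one past the threshold (12.5%, against 18.2% of all genes and 25.5% of the 6666). CKAP2 (chromosome 13, 52455429 to 52476628, plus strand), a microtubule-stabilizing protein, was at 63.7, 61.2 and 58.4 CPM in F0 and at 53.8, 51.6 and 47.7 CPM in F2, without overlap. It fell with a log2 fold change of -0.26 (SE 0.063, adjusted p = 0.0064 from edgeR). TPX2, which activates AURKA on the spindle, was at 287, 268 and 258 CPM in F0 and at 281, 263 and 283 CPM in F2, with overlapping populations and a value of 0.026. The other members of this group were DLGAP5 (-0.14, adjusted p = 0.082 from edgeR), ASPM (-0.068), HMMR (-0.010), NUSAP1 (-0.0062), KIF4A (0.047) and KIF11 (0.064).

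Of 6 genes of the central spindle and cytokinesis, the kinesins KIF20A and KIF20B moved apart. KIF20A (chromosome 5, 138178719 to 138187715, plus strand), a motor of the central spindle, was at 61.5, 64.0 and 71.4 CPM in F0 and at 53.3, 57.3 and 59.9 CPM in F2. It fell with a log2 fold change of -0.21 (SE 0.066, adjusted p = 0.034 from edgeR), though F0 replicate 1 and F2 replicate 3 nearly met. It overlaps BRD8 and CDC23 on the other strand. KIF20B (chromosome 10, 89701610 to 89774939, plus strand), a related kinesin needed to complete cytokinesis, was at 157, 155 and 149 CPM in F0 and at 182, 183 and 182 CPM in F2. The F2 libraries were nearly identical and all above F0, and KIF20B rose by 18.7%, a log2 fold change of 0.25 (SE 0.045, adjusted p = 6.5e-04 from edgeR). ANLN, which encodes the contractile ring scaffold anillin, was at 275, 312 and 322 CPM in F0 and at 272, 285 and 289 CPM in F2, a value of -0.10 that did not pass (adjusted p = 0.20 from edgeR). ECT2 (-0.096), KIF23 (0.011) and PRC1 (0.072) were not past the threshold.

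Both genes of mitotic chromosomes had positive values, and 1 of them passed. MKI67 (chromosome 10, 128096659 to 128126385, minus strand) encodes Ki-67, the coat of mitotic chromosomes that is widely used as a marker of cycling cells. It was at 462, 425 and 405 CPM in F0 and at 529, 528 and 501 CPM in F2. All F2 libraries were above F0, and MKI67 rose by 20.6%, a log2 fold change of 0.27 (SE 0.049, adjusted p = 5.9e-04 from edgeR). TOP2A was at 2313, 2193 and 2073 CPM in F0 and at 2291, 2151 and 2184 CPM in F2. Its populations overlapped almost fully, with a log2 fold change of 0.010 and a 95% interval from -0.083 to 0.10 (adjusted p = 0.91 from edgeR).

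**Figure D2:**
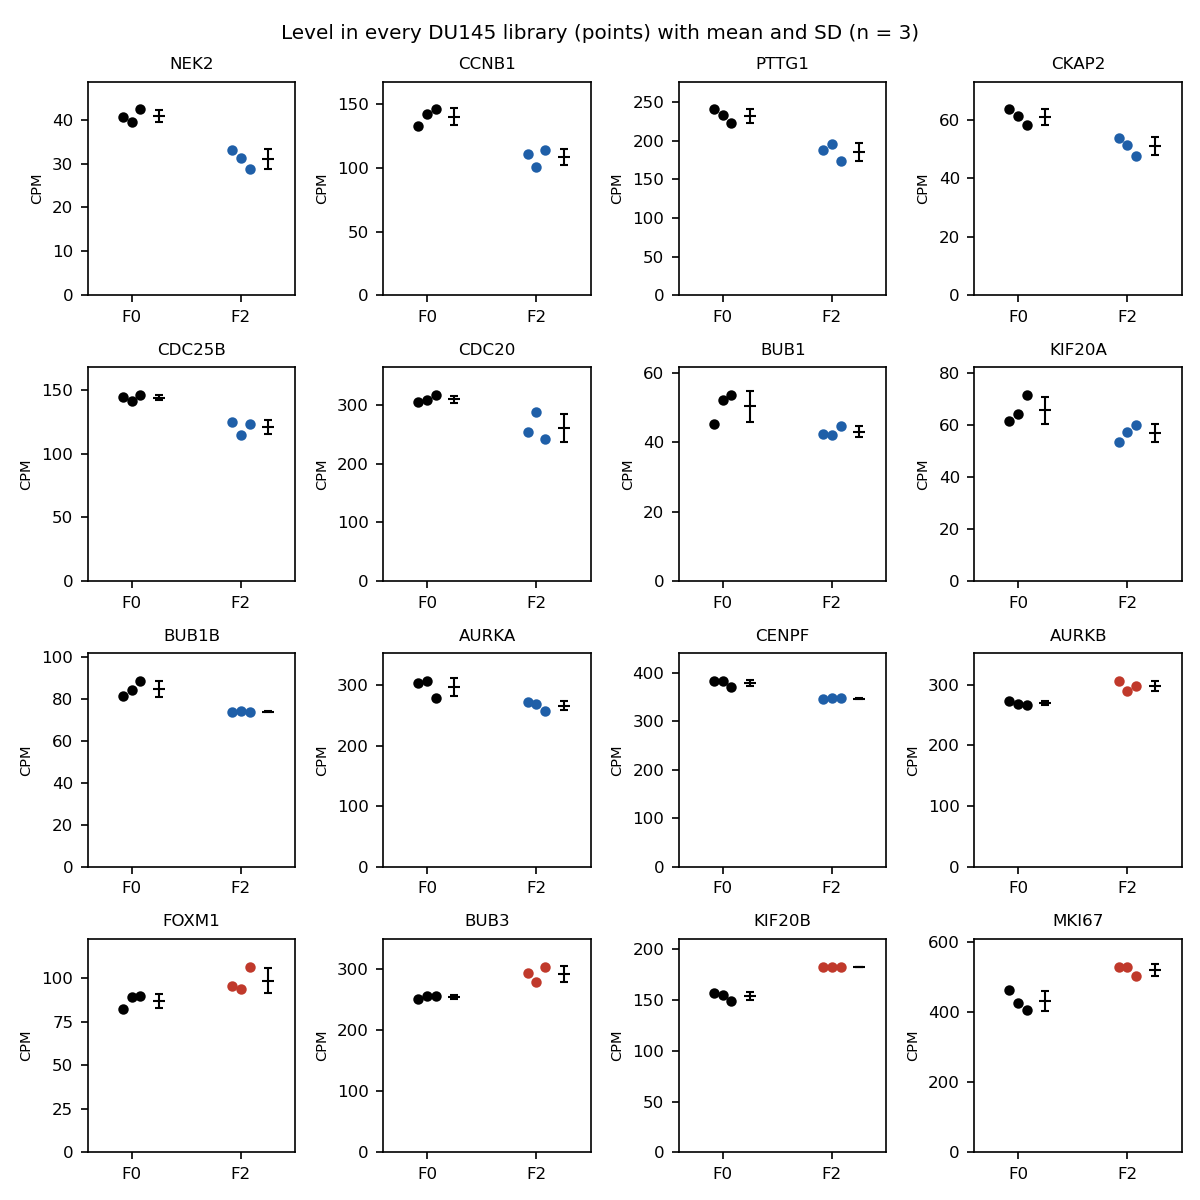
Level in CPM (y axis, from 0) of the 16 members past the threshold in each F0 and F2 DU145 library; points are libraries, and the bars beside them give the mean and SD (n = 3). The populations do not overlap in any panel, but the 16 were picked by adjusted p from these same libraries, so this is no separate support. Of all genes tested, 34% did not overlap, and of the 6666 expressed at least as highly as the lowest member, 41.7%. The shifts are a small part of the level, as for CCNB1, with a mean of 140 CPM in F0 and 109 CPM in F2.

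**Figure D3:**
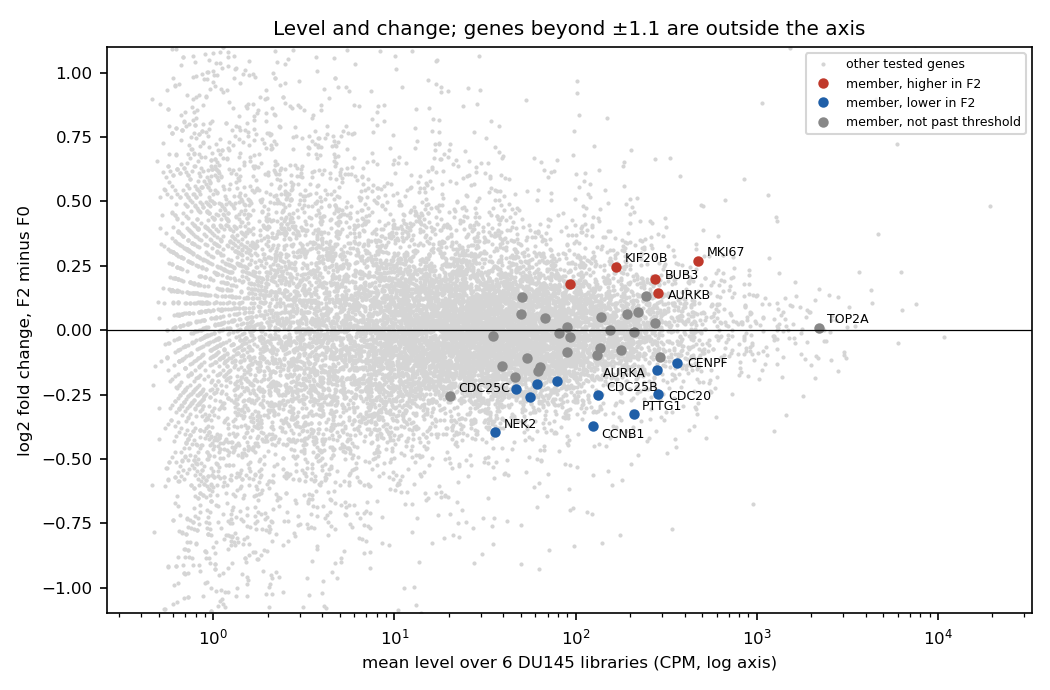
Log2 fold change (y axis) against mean level over the 6 libraries in CPM (x axis, log scale) for all genes tested, with the 42 members colored by call. The members lie from 20.3 CPM (CDC25C) to 2201 CPM (TOP2A), within the cloud of the other genes at the same level.

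The calls differed in how they held when 1 library was left out. Of the 16, 9 were past the threshold in all 6 such fits, namely CCNB1, CDC25B, NEK2, CDC20, PTTG1, CKAP2, BUB3, KIF20B and MKI67, and 0 of the 16 changed sign. FOXM1 passed only without F2 replicate 2, with values from 0.12 to 0.22 over the 6 fits. AURKA (-0.20 to -0.13) and CENPF (-0.14 to -0.12) passed without F0 replicate 3 or F2 replicate 2 and not in the other 4 fits, and AURKB (0.13 to 0.17) passed without F0 replicate 1 or F2 replicate 2. BUB1 (-0.30 to -0.18) passed without F0 replicate 1 or F2 replicate 3. BUB1B (-0.22 to -0.16) and KIF20A (-0.25 to -0.14) failed without F0 replicate 2, F0 replicate 3 or F2 replicate 1. In count terms, 6 members were lower and 3 higher without F0 replicate 2, and likewise without F2 replicate 1, while 9 were lower and 3 higher without F2 replicate 3. Scaled by total count alone, BUB3, AURKB and FOXM1 were no longer past the threshold. In DESeq2, BUB1, KIF20A and FOXM1 were not.

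Ratios of 2 members counted in the same library do not depend on how libraries are scaled. For 7 pairs of partners or related proteins, picked after the values were seen and therefore given without a test, the ratio was lower in every F2 library than in any F0 library. Counts of CCNB1 per count of CDK1, the 2 parts of one kinase, were 0.757, 0.737 and 0.753 in F0 and 0.583, 0.50 and 0.584 in F2. CCNB1 per CCNB2 averaged 1.52 ± 0.0756 in F0 and 1.25 ± 0.0394 in F2 (SD, n = 3 each), while CCNB2 alone overlapped between the populations. In the checkpoint, CDC20 per BUB3 was 1.22 ± 0.0166 in F0 and 0.900 ± 0.122 in F2, and BUB1 per BUB3 was 0.199 ± 0.0151 and 0.148 ± 0.00336. AURKA per AURKB was 1.1 ± 0.0476 in F0 and 0.893 ± 0.0335 in F2, which put the Aurora kinases in reverse order. AURKA per TPX2, its activator, was 1.1 ± 0.0459 and 0.966 ± 0.0570, and KIF20A per KIF20B was 0.428 ± 0.0454 and 0.312 ± 0.0183.

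**Figure D4:**
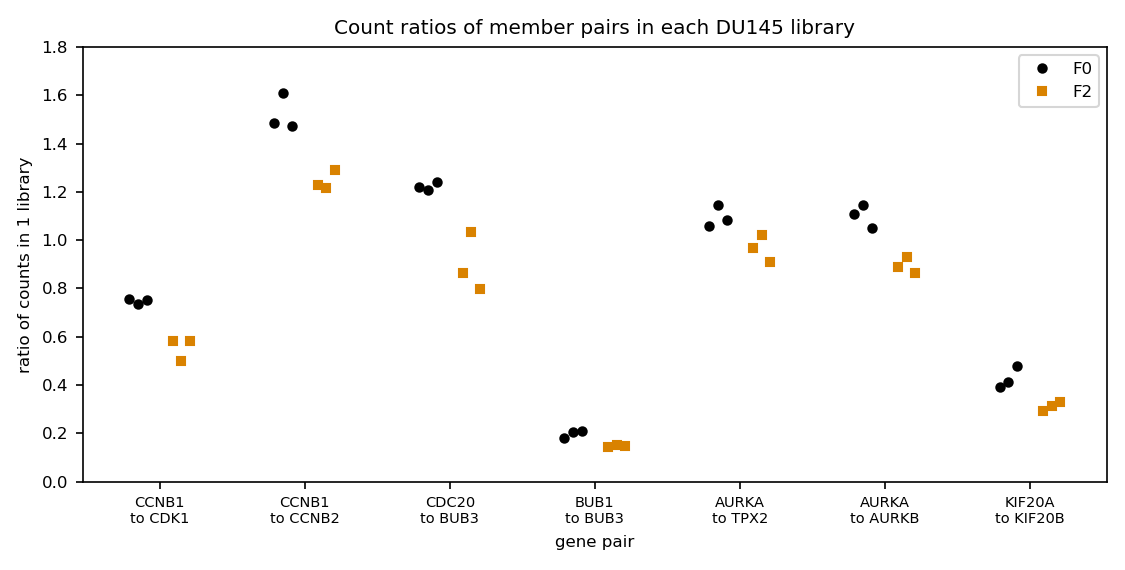
Ratio of the counts of 2 members in the same library (y axis, from 0) for 7 pairs (x axis) in F0 and F2 DU145; each point is 1 library. F2 points lie below F0 points for every pair, as the choice of pairs on these values ensured, for example CCNB1 to CDK1 with means of 0.749 and 0.556.

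The rest of the mitotic machinery was read from 7 further lists, 147 genes in all, of which 18 were higher and 11 lower in F2 (19.7% together, against 18.2% of all genes). Their median log2 fold change was 0.0065, and under scaling by total count alone 4 were higher and 36 lower, with a median of -0.083. Leaving out F0 replicate 2 gave 8 higher and 8 lower, and leaving out F2 replicate 1 gave 10 and 6. Of 34 other kinetochore genes, 4 were higher and 3 lower (20.6% together), with SKA3 (0.29), CENPI (0.26) and CENPH (-0.22) the largest changes among those 7. Of 13 passenger complex and cohesion genes, 2 were higher and 1 lower (23.1% together). These were the sororin gene CDCA5 (0.20), whose product protects cohesin, and the cohesin subunit genes RAD21 (-0.17) and SMC1A (0.14).

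Of 8 condensin genes, which compact mitotic chromosomes, only SMC4 was past the threshold, and it rose (0.24). That was 12.5% of the list, against 18.2% of all genes. Of 19 subunits and regulators of the anaphase-promoting complex, 2 (10.5%) were higher, ANAPC13 (0.54) and MAD2L1BP (0.28), and 0 were lower. That share is near the 9.49% of all genes and the 13.3% of the 6666 that were higher. Of 17 genes of mitotic entry control, 2 were higher and 3 lower (29.4% together). The checkpoint kinase CHEK2 (-0.42), the CDK1 inhibitory kinase PKMYT1 (0.26) and the phosphatase CDC25A (0.25) were the largest of these 5. Among 40 other spindle genes, 3 were higher and 2 lower (12.5% together), with HAUS5 at 0.32, KIF3B at -0.27 and PBK at -0.26. Among 16 other cytokinesis genes, 4 were higher and 2 lower (37.5% together), with ARHGAP11A at -0.30, CIT at -0.26 and MYH9 at 0.22.

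The regulators of cell cycle transcription and the genes of the preceding phases were read the same way. Of 20 tested MuvB, MYB and E2F regulators, 4 were higher and 2 lower (30% together, against 18.2% of all genes), with E2F5 (-0.50), NFYB (-0.42) and E2F4 (0.33) the largest of these. Of 40 genes of G1/S and S phase, 13 were higher and 0 lower (32.5%, against 9.49% of all genes and 13.3% of the 6666 that were higher), and DESeq2 also gave 13 and 0. At an unadjusted p under 0.05 from edgeR there were 20 of 40 in either direction, against 4396 of 14316 genes and 2624 of the 6666. The list was chosen with earlier results of these data known, and these shares were not tested. The 13 higher genes include CCNE2 (0.45), the cyclin of S phase entry, UHRF1 (0.40), which maintains DNA methylation at replication, and FEN1 (0.33), the flap endonuclease of lagging strand synthesis. The median of the 40 genes was 0.12, which was 0.033 under scaling by total count alone, with 6 higher and 3 lower. Without F0 replicate 2 or F2 replicate 1, 7 were higher, and without F2 replicate 3, 8 were. Of 15 tested G1 cyclins and CDK inhibitors, 3 were higher and 2 lower (33.3% together), with CDKN2B (-0.51), CDKN1A (0.35) and CCND3 (-0.35) the largest of these 5.

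Library by library, the median deviation of the 42 members from the F0 mean was -0.0076, 0.0043 and 0.012 (log2 CPM) in F0 and -0.072, -0.040 and -0.064 in F2. The same median over the G1/S and S phase genes was 0.12, 0.12 and 0.11 in F2, on the other side of 0, and over the other mitosis genes it was 0.020, 0.0071 and 0.024. The summed level of the members overlapped, at 8332, 8228 and 8095 CPM in F0 and 8204, 8118 and 8115 CPM in F2, and TOP2A was their largest part. Without TOP2A, a subset that was not planned, the sums were 6019, 6035 and 6022 CPM in F0 and 5913, 5967 and 5931 CPM in F2. These did not overlap, but the gap from 5967 to 6019 CPM was narrow. It appeared only with that member left out, and it was not tested. When the mitochondrially encoded genes were left out, 11 members were again lower and 5 higher, and the median was -0.071.

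**Figure D5:**
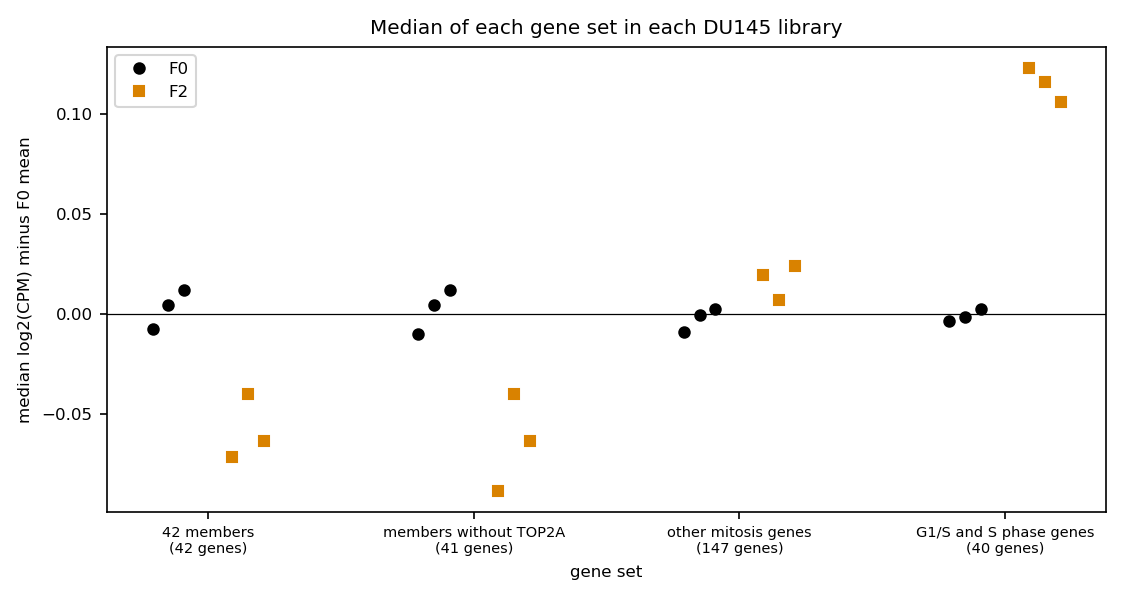
Median over the genes of a set of log2(CPM) minus the gene's F0 mean (y axis) in each of the 6 DU145 libraries, for 4 gene sets (x axis); each point is 1 library. The members lie between -0.072 and -0.040 in F2, the other mitosis genes between 0.0071 and 0.024, and the G1/S and S phase genes between 0.11 and 0.12.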

How the data were processed

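RNA of 3 F0 and 3 F2 DU145 samples was profiled with QuantSeq (500 ng of RNA, single-end reads of 101 bases). Alignment and counting were done by the authors on Bluebee, and the deposited values are raw gene counts without normalization. The submitters' processing notes name STAR 2.5.2a, HTSeq 0.6.0 and GRCh38, and the annotation release and the use of strand are not given in the sources used here. Reads outside genes (9.60 to 10.0% in F0, 11.3 to 11.9% in F2), ambiguous reads and reads aligning to several places stayed out of library sizes and tests, and 92 spike-in rows held 0 counts.

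Identifiers were matched to symbols (56104 of 60107, and all 42 members), with positions from GENCODE on GRCh38. With R 4.3.3, genes passing filterByExpr (minimum count 10, minimum total 15) were scaled by TMM and tested with edgeR 4.0.16 (quasi-likelihood, two-sided, Benjamini-Hochberg over 14316 genes, threshold 0.05). The SE is the absolute log2 fold change divided by the square root of F, and intervals cover 95%. The steps were tested on simulated data. Alternatives were median-ratio size factors, total count alone, other filters, DESeq2 1.42.0, a replicate block, no mitochondrially encoded genes, and each library left out. They were run for the G1/S and other mitosis genes after seeing the data.

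Named are all members past the threshold, the 6 highest by CPM, CDK1, CCNB1, PLK1, AURKB, TOP2A, MKI67 and FOXM1, the other members by value, and at most 3 past the threshold per further list, by size of change. The members and lists were chosen with earlier results of these data known. No test was run over a list. Human promoter motifs and PAIII genes were not analysed here. Some marker genes are not reported here.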

Additional observations from a re-analysis of the deposited data

How the results depend on the processing

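Over 13 alternatives, 8 of the 16 calls (CCNB1, CDC25B, NEK2, CDC20, PTTG1, CKAP2, KIF20B and MKI67) were past the threshold every time. Library size alone gave 2 higher and 22 lower members and a median log2 fold change of -0.16, with all genes shifted to -0.092. That scaling turned the sign of CDK1 (-0.028), CENPE (-0.088), CDCA8 (-0.037), KIF11 (-0.026), KIF4A (-0.043), TPX2 (-0.064), KIF23 (-0.079), PRC1 (-0.018), TOP2A (-0.079) and the median of the other mitosis genes (-0.083). With each library left out in turn, the members numbered 3 to 5 higher and 6 to 11 lower, the median ran from -0.079 to -0.049, and the calls over all genes ran from 1670 (without F0 replicate 2) to 2621. Values on both sides of 0 in those fits were CDCA3 (-0.076 to 0.024), CENPE (-0.0097 to 0.020), INCENP (-0.059 to 0.011), TPX2 (-0.0083 to 0.068), NUSAP1 (-0.047 to 0.042), HMMR (-0.034 to 0.013), KIF23 (-0.033 to 0.044) and TOP2A (-0.029 to 0.050), none of them past the threshold in the reported fit. In DESeq2 13 members passed, and CENPF was lost with no filter on low counts. The causes were not tested.

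The F0 and F2 samples share replicate numbers. Deviations of same-numbered samples correlated at 0.20, -0.047 and 0.22, and those of differently numbered samples at -0.26 to 0.086. The same-numbered values for replicates 1 and 3 were thus the highest. These few values do not settle whether the numbers mark pairs, and the reported fit used no pairing. With a replicate block, 6 members were higher and 12 lower, with UBE2C (0.14, adjusted p = 0.045 from edgeR) and CDC25C (-0.26, adjusted p = 0.041 from edgeR) added, and the median was -0.073. CDC25C, the member with the fewest counts, had the widest 95% interval of the 42 (-0.44 to -0.068).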

Other observations

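Several members have processed or near-identical copies elsewhere in the genome. PTTG2 had 0 counts and PTTG3P 1 to 2 counts in each library beside the abundant PTTG1, and KIF4B, the copy of KIF4A, had at most 1. CDC20P1 had 11 to 20 counts and UBE2CP5 26 to 53 counts per library, with overlapping populations. Reads that align to several places were excluded from the gene counts, so reads shared between a member and a copy appear in neither.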
